A study of Arabidopsis thaliana with 16 samples.

Results

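Transcripts that peaked at the photosynthetic optimum of warming Arabidopsis leaves were defined by 3 differences between group means of log2 signal. A probe set was a member where the optimum stood at least 0.5 above the baseline, and where 20% and 30% inhibition each stood at least 0.5 below the optimum. Of 22746 probe sets tested, 175 (0.769%) met the rule. Of these, 71 were assigned to 1 gene (70 different genes), 5 to several genes and 99 to none, so the genes named below cover only part of the set. The 3 differences in the rule are given as descriptions, without a test.

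Net photosynthesis of a leaf rises with temperature to an optimum and declines beyond it, as Rubisco activation and membrane-bound electron transport become limiting. Leaf cells meet warming with chaperone synthesis, and also with rapid and often short-lived transcript changes of calcium-binding, defence and cell wall genes that respond to many disturbances. A transcript that peaks within such a curve is one whose abundance was high at an intermediate point and lower at the hotter ones.

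RNA came from first fully expanded leaves of the Columbia line, ecotype Col-0, with 4 arrays for each of 4 states. Plants had been raised at 22 °C and 60% relative humidity, with light of 350 µmol m-2 s-1 for 10 h a day. The baseline leaves were sampled at that growth temperature, the optimum leaves where photosynthesis was highest, and the leaves of the other groups where it lay 20% or 30% under the optimum. Temperature went up in steps of 2 °C every 10 min within a range of 22 to 42 °C, photosynthesis was left to settle for 20 to 30 min before sampling, and a full curve lasted 3 to 4 h. The labels give no leaf temperature for any state, and the effect of temperature cannot be told apart from that of elapsed time or hour of sampling. Replicates are labelled as samples of randomly collected plants, and p-values reflect only how much these samples varied. In whole leaves, fewer cells of a type and less RNA per cell cannot be told apart either. Of the 22 cell type markers looked for, 2 had a named probe set. The Rubisco activase gene RCA, a mesophyll marker, lay between 14.35 and 14.64 on all 16 arrays, and the guard cell factor FMA (FAMA) between 6.33 and 6.99. RCA stood near the highest value in the data, 14.68, where differences may be compressed, so its narrow range does not settle mesophyll content. Its state means were 14.62, 14.56, 14.41 and 14.46 in the order of the curve.

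Several arrays stood apart in the member signals, and they bear on several results. Relative to each member's baseline mean, the median member stood at 0.76, 0.62, 0.73 and 1.12 in optimum replicates 1 to 4. The corresponding values were −0.22, −0.06, 0.18 and 0.00 in the 20% inhibition arrays and −0.14, −0.10, −0.04 and −0.24 in the 30% inhibition arrays. Replicate 4 was the highest optimum array for 96 of the 175 members, although it was the highest for only 23.5% of all probe sets. Replicate 3 was the highest 20% inhibition array for 96 members, against 32.5% of all probe sets. Replicate 1 was the lowest 20% inhibition array for 97 members, replicate 2 the lowest optimum array for 88 and replicate 4 the lowest 30% inhibition array for 85. The matching shares of lowest arrays over all probe sets were not taken. The signal of the 25S rRNA control ran from 5.55 to 6.41 at the baseline and from 5.52 to 6.31 at the optimum. It was 12.99, 10.41, 5.25 and 12.88 in 20% inhibition replicates 1 to 4 and ran from 8.67 to 11.35 at 30% inhibition, so that 20% inhibition replicate 3 had the lowest value of all. Apart from that array, the control was higher on every inhibited array than on any baseline or optimum array. A fit with it as a covariate therefore separates it poorly from state, and a call lost in that fit can reflect this overlap. With this control as a covariate, limma called 20 members (11.4%) higher and 18 (10.3%) lower at 20% inhibition than at the baseline, where 15.3% and 19.8% of all probe sets were called. Without it the counts were 8 (4.57%) and 28 (16.0%), beside 18.9% and 24.9% of all.

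**Figure D1:**
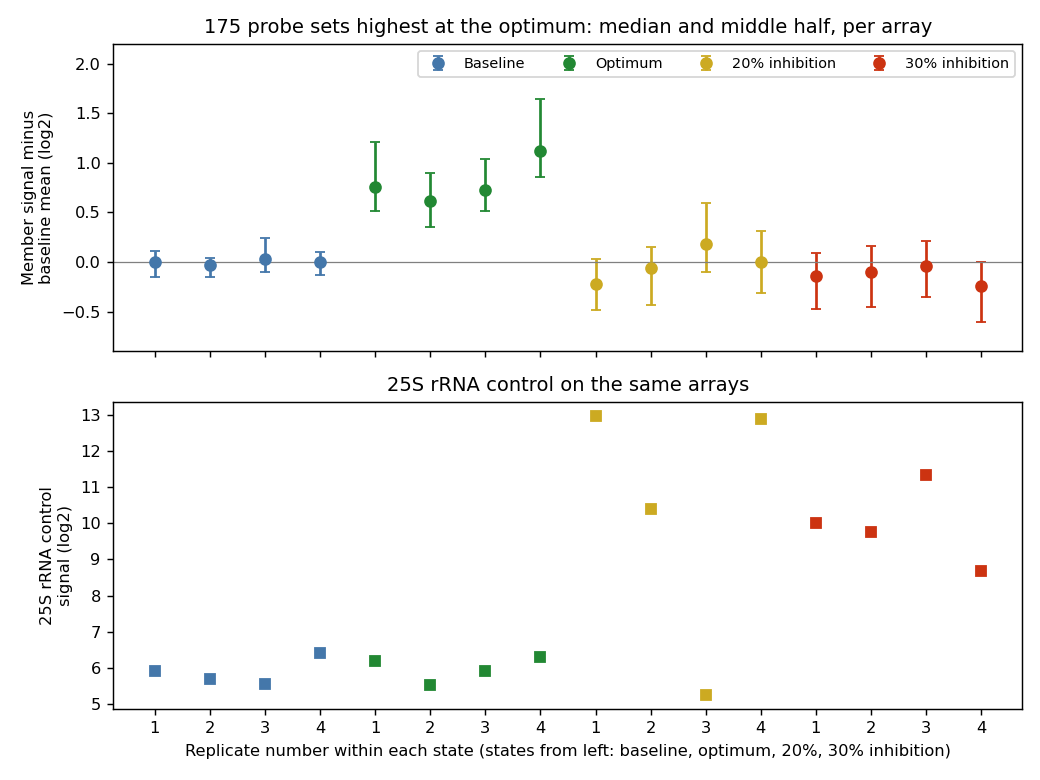
Member signal (points are medians over members, bars the range from the lower to the upper quartile) and the 25S rRNA control on each of the 16 arrays, in log2 units, by state in the order of the curve. The median member lies 0.62 to 1.12 above its baseline mean (log2) on the optimum arrays and between −0.24 and 0.18 on the inhibited arrays, where 20% inhibition replicate 3 is the highest in member signal and the lowest in 25S signal.

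The median member had a log2 signal of 6.73 at the baseline, 7.71 at the optimum, 6.55 at 20% inhibition and 6.41 at 30% inhibition. The same medians over all probe sets were 6.15, 6.17, 6.10 and 6.13. The difference of optimum minus baseline had a median of 0.79 over members and reached 2.43, and 57 members stood at least 1 above the baseline. The differences from the optimum had medians of −0.87 at 20% inhibition and −1.0 at 30% inhibition, and reached −3.0 and −3.26. In 78 members (44.6%) the 4 optimum arrays lay above all 12 other arrays, a pattern held by 1.55% of all probe sets, and the rule itself favours it. In 131 members every optimum array lay above every baseline array. In another 35 members 3 optimum arrays did so, and in 9 members 2 did. The rule favours this separation as well, and the matching shares over all probe sets were not taken, so these counts are only a description. Just inside the threshold were FU (−0.50 for 20% inhibition minus optimum), AT2G41650 (0.502 for optimum minus baseline) and TUB5 (−0.507 for 20% inhibition minus optimum). Just outside were AT2G18690, AT4G20830 and AT4G03100, at −0.499, −0.495 and −0.495 for 20% inhibition minus optimum.

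Spread between replicates was larger in the members than in the array as a whole. The rule acts on means of 4 arrays and so itself favours probe sets with a wide spread. The median SD of a member was 0.182 at the baseline, 0.365 at the optimum, 0.286 at 20% inhibition and 0.179 at 30% inhibition. Over all probe sets it was 0.0929, 0.0987, 0.12 and 0.0996. The 4 optimum arrays differed by more than 1 in 69 members, out of 257 such probe sets in all, and by more than 2 in 16 members. The individual genes below therefore fall into different patterns of optimum arrays. Groups of genes by function were put together after the values had been seen, and cover 42 of the probe sets in 11 groups.

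The largest optimum difference of a named gene belonged to LTI30, a dehydrin that accumulates in cold and dehydrated tissue. Its signal was 6.74, 6.12, 6.68 and 6.31 at the baseline, 8.94, 8.56, 8.12 and 8.86 at the optimum, 6.28, 7.76, 6.69 and 7.56 at 20% inhibition and 7.24, 6.31, 7.59 and 7.02 at 30% inhibition. All 4 optimum arrays lay above all others, at 4.46 times the baseline mean, while the inhibited arrays scattered from baseline level upwards. AT4G30650, of the small membrane protein family induced by low temperature and salt, read 11.17, 11.15, 11.00 and 10.91 at the optimum against 10.01, 9.86, 9.92 and 9.73 at the baseline. It came down only in part, with 10.23, 10.34, 10.02 and 10.68 at 20% inhibition and 11.00, 10.30, 10.16 and 10.64 at 30% inhibition. All of these inhibited arrays lay above every baseline array. A cold-regulon list of 3 probe sets held no member. Its median differences from the baseline were 0.90 at the optimum, 1.46 at 20% inhibition and 1.55 at 30% inhibition. In an abscisic acid and dehydration list of 15 probe sets, which held LTI30, these medians were 0.11, 0.20 and 0.30. Neither list median came down after the optimum. TMT1, which loads monosaccharides into the vacuole, read 8.11, 8.41, 8.44 and 8.50 at the optimum and between 7.26 and 7.68 on the 12 other arrays.

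The only probe set above LTI30 in its optimum difference was 262119_s_at, which is assigned to no gene here. It read 7.62, 6.88, 7.06 and 6.73 at the baseline, 8.95, 8.68, 9.92 and 10.46 at the optimum, 8.03, 8.79, 8.47 and 10.01 at 20% inhibition and 8.84, 8.25, 8.13 and 8.24 at 30% inhibition. Every array of the 3 warmer states lay above every baseline array, so this probe set came down only in part.

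The calcium-binding members, grouped after their values were seen, peaked mainly on optimum replicates 1 and 4. A calcium signalling list of 13 probe sets had a median optimum difference of −0.13. Of these members it held only CML38, so it cannot show how general a peak was among calcium-binding genes. AT3G01830, an EF-hand protein, read between 3.69 and 3.80 at the baseline, 6.79, 4.03, 4.78 and 6.81 at the optimum, and between 3.81 and 4.06 on the 8 inhibited arrays. Optimum replicates 1 and 4 stood far above every other array, while replicate 2 lay within the range of the inhibited arrays. The baseline and inhibited readings of this gene lay near the lowest value in the data, 3.25, where differences may be compressed. The calmodulin-like gene CML38 read 8.47, 6.24, 6.56 and 7.25 at the optimum and 6.00, 5.26, 6.31 and 6.38 at the baseline. At 20% inhibition its replicate 3 read 7.29 and the other arrays 5.55 to 6.10. The EF-hand genes AT1G18210 and AT5G39670 had smaller differences, of 0.86 and 0.58, with all 4 optimum arrays above all others. In these 4 genes the highest optimum array was replicate 1 in CML38 and replicate 4 in the rest.

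Genes of resistance proteins and receptor kinases differed in what followed the optimum. AT2G34930, of a leucine-rich repeat disease-resistance family, read 6.31, 5.64, 5.86 and 6.21 at the baseline, 8.09, 6.56, 7.10 and 7.91 at the optimum, and 5.47 to 6.15 on the inhibited arrays. All its optimum arrays lay above all others, by the least in replicate 2. AT1G72900, a TIR-type nucleotide-binding protein gene, read 7.27, 6.64, 7.29 and 7.29 at the optimum and 6.00 to 6.29 at the baseline, and 20% inhibition replicate 3, at 7.09, reached the optimum range. The receptor kinase genes AT1G53440 and AT1G35710 had optimum differences of 0.67 and 0.62, and AT1G35710 went far below the baseline afterwards, as described with the tests.

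Small secreted proteins of defence included AT4G12490, the member whose optimum arrays differed most, by 3.85. AT4G12490 and AT4G12500, lipid-transfer-type proteins of the EARLI1 family, stand on chromosome 4 with 1 gene between them. AT4G12490 read 5.66, 5.26, 9.11 and 8.36 at the optimum and 5.21 to 5.81 on every other array. AT4G12500 read 3.94, 4.00, 5.99 and 5.61 at the optimum and 3.80 to 4.12 elsewhere, near the lowest value in the data, 3.25. In both, replicates 3 and 4 carried the whole peak and replicates 1 and 2 lay at the level of the other states. AT4G16260, a glucanase family gene, shared this pattern, with 5.13, 5.12, 5.98 and 7.22 at the optimum. The defensin PDF1.2, a marker of jasmonate and ethylene signalling, read 5.91 to 6.54 at the baseline, 7.02, 7.37, 6.98 and 7.88 at the optimum, 5.54, 5.58, 7.05 and 6.20 at 20% inhibition and 5.43 to 5.57 at 30% inhibition. Its relative PDF1.2b had an optimum difference of 0.60 and was likewise lowest at 30% inhibition, at 6.68 to 6.77. The 2 sequences are close, so their probes may share signal. OPCL1, a CoA ligase of jasmonate synthesis, read 10.01, 9.28, 9.77 and 9.90 at the optimum and 8.23 to 9.17 on all other arrays. A jasmonate list of 5 probe sets and an ethylene response list of 4 held no member. Their median optimum differences were 0.19 and 0.10. Their medians of 20% inhibition minus optimum were 0.15 and −0.04, and those of 30% inhibition minus optimum 0.13 and 0.00.

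Cell wall and secreted enzymes made up 10 probe sets with optimum differences of 0.57 to 1.11. In a cell wall list of 42 probe sets the median optimum difference was −0.06. The copper amine oxidase gene AT1G31690 was covered by 2 probe sets, and both were members. The first read 7.63, 7.65, 7.47 and 7.65 at the optimum against 6.49, 6.34, 7.02 and 6.10 at the baseline, and the second had an optimum difference of 0.78. AT3G43670, another copper amine oxidase, stood 0.74 above the baseline. BGLU44, a beta-glucosidase, was the steadiest of the group. It read 10.31 to 10.36 at the baseline, 11.02, 11.14, 11.19 and 11.31 at the optimum and 10.37 to 10.66 on the inhibited arrays. XTH18, which cuts and rejoins xyloglucan, was at the opposite end, with 3.80 to 3.98 at the baseline, 5.96, 3.80, 4.46 and 5.03 at the optimum, and 5.14 in 20% inhibition replicate 3 against 3.82 to 4.00 in its fellow arrays. Its baseline readings lay near the lowest value in the data, 3.25. The pectin methylesterase ATPMEPCRB read highest of all in 20% inhibition replicate 3, at 7.32, above its 6.11, 5.44, 6.49 and 6.85 at the optimum. Peroxidase AT5G64120 and the berberine-bridge-type oxidase AT4G20860 were highest in optimum replicate 4, at 7.24 and 6.65.

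Lectins and proteases completed the secreted proteins. The jacalin lectin gene AT1G52000 read 8.17, 9.33, 8.41 and 8.97 at the optimum and 6.55 to 7.47 on all other arrays, 3.43 times the baseline mean at the optimum. The mannose-binding lectin AT5G18470 stood 0.86 above the baseline. The subtilase AT4G21650, the aspartyl protease AT3G54400, the carboxypeptidase-like scpl35 and the Kunitz trypsin inhibitor AT1G17860 stood 0.59 to 0.79 above it, with the highest optimum array in replicate 2 or 4.

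Genes of cell division, and beta-tubulin genes grouped with them, were also present among the members. 3xHMG-box2, a chromatin protein associated with mitotic chromosomes, read 7.46, 7.93, 7.07 and 8.40 at the optimum and 5.62, 5.68, 7.0 and 5.68 at the baseline, where replicate 3 stood far above its fellows. It read 6.92 to 7.43 at 20% inhibition and 5.91 to 6.83 at 30% inhibition. 3xHMG-box1 read 4.72, 5.55, 4.63 and 5.62 at the optimum and 4.29 to 4.60 at the baseline. FU, the FUSED kinase of the phragmoplast, read 5.88, 6.63, 6.18 and 6.96 at the optimum and 5.69 to 5.93 at the baseline. In these 3 genes replicates 2 and 4 were the highest optimum arrays. The second FU probe set, 262474_at, was no member and had means of 4.69, 4.73, 4.71 and 4.63 in the 4 states in order. The histone H2B gene HTB2 read 8.71, 9.09, 8.37 and 8.85 at the optimum and 7.93 to 8.50 at the baseline, so that its optimum replicate 3 overlapped the baseline. The beta-tubulin genes TUB5 and TUB7 stood 0.68 and 0.79 above the baseline with all 4 optimum arrays above every other. In a list of cell division and tubulin genes added after these members had been seen, 21 probe sets were measured and 6 were members. The median optimum difference over the list was 0.38. Among the list's non-members TUB1 stood 1.69 above the baseline at the optimum and did not come down with the members. Its means were 5.64, 7.33, 7.37 and 7.10 in the 4 states in order. AUR1 and AUR2 stood 0.68 and 0.67 above the baseline, but 20% inhibition minus optimum was only −0.17 and −0.21. HON4, KINESIN-13A, TUA1 and MGH3 did not rise, with optimum differences of −0.14, −0.03, −0.26 and −0.06.

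Genes to which no function is given here were among the largest optimum differences. AT1G15010 read 8.54, 5.69, 6.63 and 7.79 at the optimum and 4.99 to 5.73 at the baseline, where optimum replicate 2 overlapped. AT1G19380 read 9.76, 8.43, 8.97 and 9.53 at the optimum and 7.31 to 8.08 at the baseline, and its 20% inhibition replicate 3 stood as high, at 9.27. Both were highest in optimum replicates 1 and 4, as was AT2G24600, an ankyrin repeat protein gene, with 9.21, 7.86, 8.67 and 9.47 at the optimum against 7.30 to 7.64 at the baseline. AT2G24550 lies 4 genes away from it on chromosome 2 and stood 0.59 above the baseline. AT3G02640 and AT4G15830 were highest in optimum replicates 2 and 4. AT3G02640 read 8.03, 8.74, 7.56 and 8.68 at the optimum and 6.72, 6.63, 7.82 and 6.50 at the baseline, so that its baseline replicate 3 lay above the lowest optimum array. AT4G15830 read 6.45, 7.17, 6.57 and 7.30 at the optimum and 5.37 to 6.11 at the baseline, with no overlap.

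**Figure D2:**
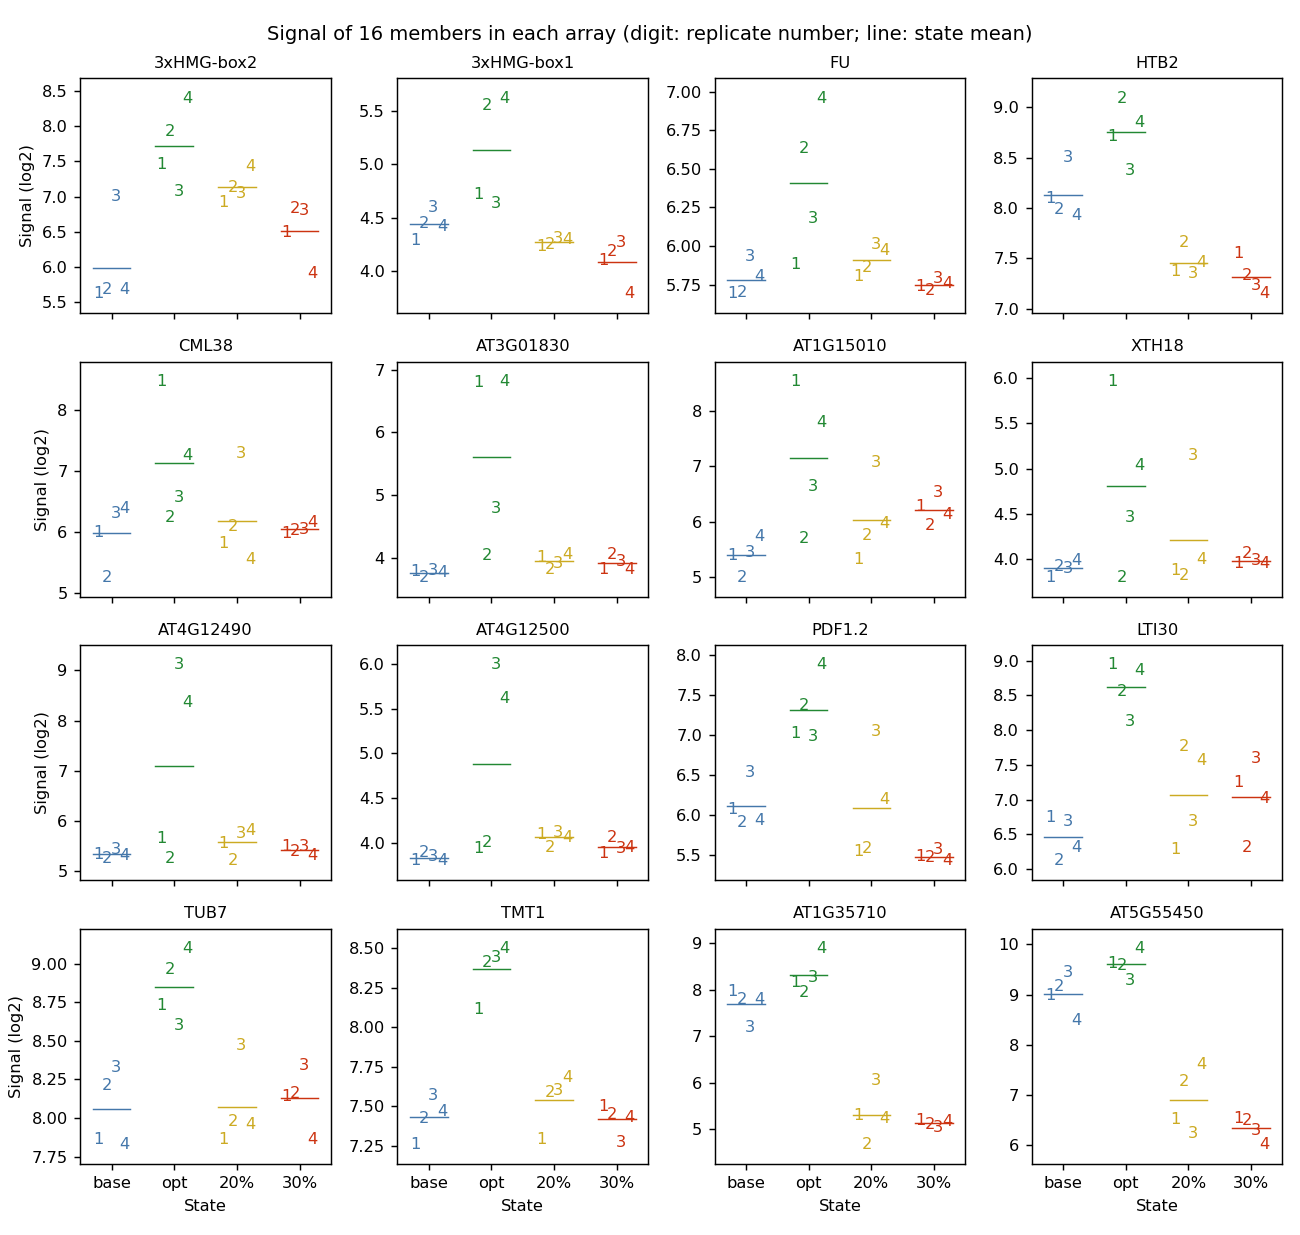
Signals of 16 members on every array, in log2 units, by state in the order of the curve; digits are replicate numbers and lines are state means. LTI30 and TMT1 are high on all 4 optimum arrays, AT3G01830 mainly on replicates 1 and 4 (6.79 and 6.81), and AT4G12490 on replicates 3 and 4 (9.11 and 8.36).

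Whether the peak returned to the starting level was tested by setting the inhibited states against the baseline in limma. Group means of all these states entered the rule, but the rule does not fix the sign of these differences. It does keep each member's inhibited difference at least 0.5 under its optimum difference, which had a median of 0.79. Higher calls are therefore limited by the rule. At 20% inhibition 135 of 175 members lay within 0.5 of the baseline, 19 at least 0.5 above and 21 at least 0.5 below. The median difference was 0.03, against 0.00 over all probe sets. In limma at an adjusted p under 0.05, 8 members (4.57%) were higher than the baseline, where 18.9% of all probe sets were, and 28 (16.0%) were lower, where 24.9% were. At 30% inhibition 129 members lay within 0.5 of the baseline, 12 at least 0.5 above and 34 at least 0.5 below, with a median difference of −0.14 (−0.01 over all). There 8 members (4.57%) were called higher, against 19.3% of all probe sets, and 35 (20.0%) lower, against 24.9%. In a fit on only the 8 arrays compared these counts were 13 (7.43%) and 57 (32.6%), against 20.1% and 25.8% of all probe sets in that fit. With arrays centred on their medians the counts at 20% inhibition were 13 higher and 26 lower, against 23.7% and 22.3% of all. Without 20% inhibition replicate 1 the count higher at 20% inhibition was 14 (8.0%, against 17.8% of all). The shares of higher calls lie under the background in each of these fits, which the limit set by the rule favours. The share of lower calls at 30% inhibition lay under the background in the main fit and above it on the 8 arrays. It therefore has no settled side. The main fit shares its estimate of spread across all states, and the members' spread was widest at the optimum. Whether this lowers the number of calls was not tested. The same direction was called in both inhibited states for 6 members that were higher and 23 that were lower, and 125 had no call in either. The matching shares over all probe sets were not taken, so these joint counts are only a description.

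The members that fell furthest below the baseline had only modest peaks. Both differences use the same baseline mean, which by itself ties a smaller peak to a larger fall. The median optimum difference over all members was 0.79. AT5G55450, a lipid transfer protein gene, read 8.98, 9.17, 9.44 and 8.49 at the baseline, 9.29 to 9.92 at the optimum, 6.51, 7.27, 6.24 and 7.60 at 20% inhibition and 6.53, 6.50, 6.29 and 6.02 at 30% inhibition. No inhibited array reached the baseline range. Against the baseline it fell by 2.11 ± 0.26 (SE) at 20% inhibition (limma adjusted p = 2.7e-06) and by 2.68 ± 0.26, or 6.42-fold, at 30% inhibition (limma adjusted p = 1.6e-07). The receptor kinase gene AT1G35710 read 7.97, 7.80, 7.19 and 7.80 at the baseline, 7.95 to 8.89 at the optimum, 5.29, 4.68, 6.06 and 5.23 at 20% inhibition and 5.20, 5.10, 5.05 and 5.16 at 30% inhibition. It fell by 2.38 ± 0.24 at 20% inhibition (limma adjusted p = 3.5e-07) and by 2.56 ± 0.24, or 5.91-fold, at 30% inhibition (limma adjusted p = 1.3e-07), and its inhibited arrays did not overlap the baseline either. Both genes left the set when optimum replicate 4 was omitted, because the optimum difference then passed under 0.5.

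Further falls at 30% inhibition involved genes of several functions. HTB2 read 7.55, 7.33, 7.23 and 7.15 at 30% inhibition, below the whole baseline range, and fell by 0.81 ± 0.14 (limma adjusted p = 0.00016). AT5G52750, a heavy-metal-associated domain protein gene, fell by 1.19 ± 0.21 (limma adjusted p = 0.00012), and AT4G38550, a phospholipase-like gene, by 1.04 ± 0.18 (limma adjusted p = 0.00011). AT3G60420 fell by 0.89 ± 0.20 (limma adjusted p = 0.0015, and 0.052 with the 25S covariate). The cytochrome P450 gene CYP71B23 read 3.83, 3.72, 3.94 and 3.97 at 30% inhibition against 4.84, 4.72, 4.69 and 4.62 at the baseline and fell by 0.85 ± 0.11 (limma adjusted p = 8.2e-06). Its readings at 30% inhibition lay near the lowest value in the data, 3.25, where differences may be compressed. AT1G53440, AT3G51280 and AT4G15830 were also called, at −0.41, −0.53 and −0.51, the first and second of them being named after their values were seen. The call of AT1G53440 ended without baseline replicate 4 or 30% inhibition replicate 4 (limma adjusted p = 0.053 and 0.052). That of AT4G15830 ended without any 1 of 8 arrays, at −0.35 (limma adjusted p = 0.17) without baseline replicate 3. The largest fall of a probe set not assigned to 1 gene was −1.93, in 262899_at, which has no gene here.

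Few members were called above the baseline, a side on which the rule limits them. Of the 8 called higher at 30% inhibition, 2 had a gene. AT4G30650 rose by 0.64 ± 0.16 (1.56-fold, limma adjusted p = 0.0026), and BGLU44 by 0.23 ± 0.07 (1.17-fold, limma adjusted p = 0.01), with all 4 arrays of each above the baseline arrays. The unassigned probe set 262119_s_at stood 1.29 ± 0.39 above the baseline (limma adjusted p = 0.013). At 20% inhibition 3xHMG-box2 was 1.13 ± 0.31 higher (limma adjusted p = 0.0061) and AT4G30650 0.44 ± 0.16 higher (limma adjusted p = 0.031). With the 25S covariate, which overlaps with state, the limma adjusted p of 3xHMG-box2 was 0.09. That of AT4G30650 was 0.35 at 20% inhibition and 0.064 at 30% inhibition. The call of AT4G30650 at 20% inhibition also ended without replicate 2 or 4 of either the 20% inhibition or the baseline arrays (limma adjusted p = 0.061 to 0.12). Baseline replicate 3 of 3xHMG-box2 lay inside the range of its 20% inhibition arrays. LTI30 differed by 0.61 ± 0.31 at 20% inhibition and by 0.58 ± 0.31 at 30% inhibition (limma adjusted p = 0.13 and 0.15), with arrays of both states inside the baseline range.

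**Figure D3:**
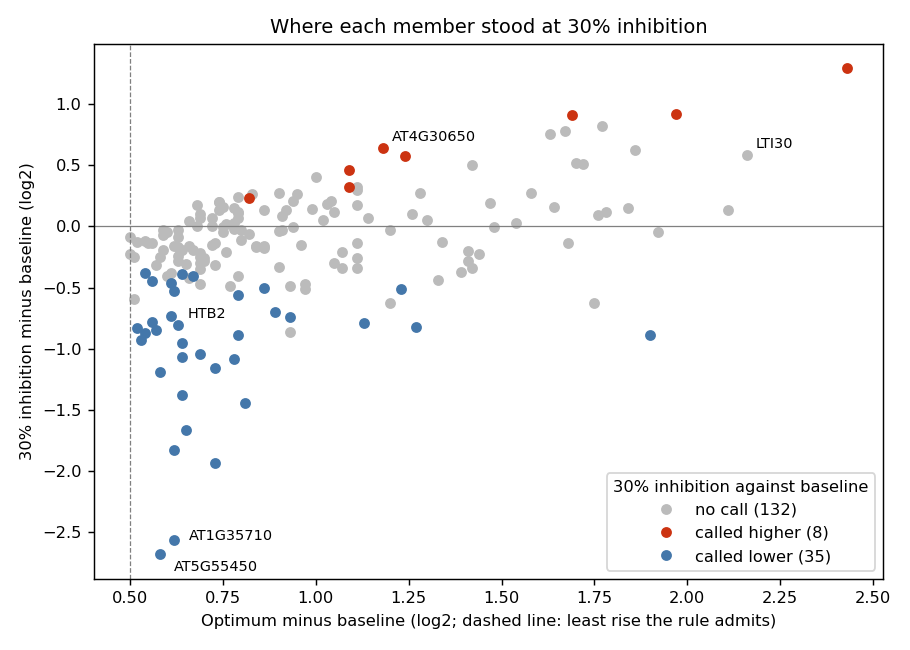
Each member's difference of 30% inhibition minus baseline (vertical axis) against its difference of optimum minus baseline (horizontal axis), both in log2 units, with colours for the limma calls at 30% inhibition. The 35 members called lower include AT5G55450 and AT1G35710 at −2.68 and −2.56, both with optimum differences near the threshold of 0.5, and the 8 called higher include AT4G30650 at 0.64.

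Between the inhibited states few members were called. The median difference of 30% minus 20% inhibition was −0.13 (−0.01 over all probe sets), and 167 of 175 members had no call. In limma 1 member (0.571%) was higher at 30% inhibition, against 4.19% of all probe sets, and 7 (4.00%) were lower, against 2.97%. The share of lower calls is near the background. Named members among the lower ones were AT5G52760 and AT4G15830. AT5G52760, which lies next to AT5G52750 on chromosome 5 and encodes a protein of the same family, read 3.94, 4.20, 4.16 and 3.97 at 30% inhibition against 4.48, 4.47, 5.83 and 5.51 at 20% inhibition. Its readings at 30% inhibition lay near the lowest value in the data, 3.25, where differences may be compressed. This gene fell by 1.01 ± 0.27 (2.01-fold, limma adjusted p = 0.032), and all its 30% inhibition arrays lay below the other state and below the baseline range of 4.37 to 4.43. Without 20% inhibition replicate 3 it differed by −0.75 (limma adjusted p = 0.062), and the call also ended without 20% inhibition replicate 4 or any 1 of the 30% inhibition arrays (limma adjusted p = 0.055 to 0.092). AT4G15830 read 5.11, 5.37, 5.36 and 4.71 at 30% inhibition against 5.91, 6.02, 5.76 and 6.13 at 20% inhibition and fell by 0.81 ± 0.20 (limma adjusted p = 0.019, and 0.053 and 0.063 without 20% or 30% inhibition replicate 4). The single higher member, 256666_at with no gene here, rose by 0.54 ± 0.15 (limma adjusted p = 0.035). Without 20% inhibition replicate 3 the higher count was 6 (3.43%, against 5.83% of all probe sets), without 20% inhibition replicate 1 or 2 or any 1 of the 30% inhibition arrays it was 0 (1 to 5 members at an unadjusted p under 0.05), and without 30% inhibition replicate 4 the lower count was 3 (1.71%, against 2.16%).

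The rule was also applied without each array in turn, and the resulting probe sets were read in the omitted array. The means it is set against were themselves chosen by the rule on the other arrays, which favours a difference, so these shares are a description, and the share over all probe sets is not a matched value without a peak. Chosen without optimum replicate 4, 144 probe sets resulted, and in that array 135 of them (93.8%) stood at least 0.5 above the baseline mean, against 6.01% of all probe sets. For optimum replicates 1, 2 and 3 the shares were 63.3%, 49.3% and 62.2%, against 3.95%, 4.05% and 3.75% of all. Read against the optimum mean, 98.8%, 93.0%, 60.3% and 77.6% of the probe sets chosen without 20% inhibition replicates 1 to 4 stood at least 0.5 lower in the omitted array, with all-probe shares of 10.8% to 13.1%. For 30% inhibition these shares ran from 87.4% to 96.5%. Baseline arrays, read against the optimum mean in the same way, gave 70.9% to 91.8%. The lowest share at 20% inhibition belonged to replicate 3, the array with the lowest 25S signal, and the lowest at the optimum to replicate 2. In all, 105 members (39 of them with 1 gene) were kept whichever single array was left out. Without optimum replicate 4, 39 members were lost, among them 3xHMG-box2, FU, PDF1.2b, ATPMEPCRB, AT5G52750 and AT2G41650.

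**Figure D4:**
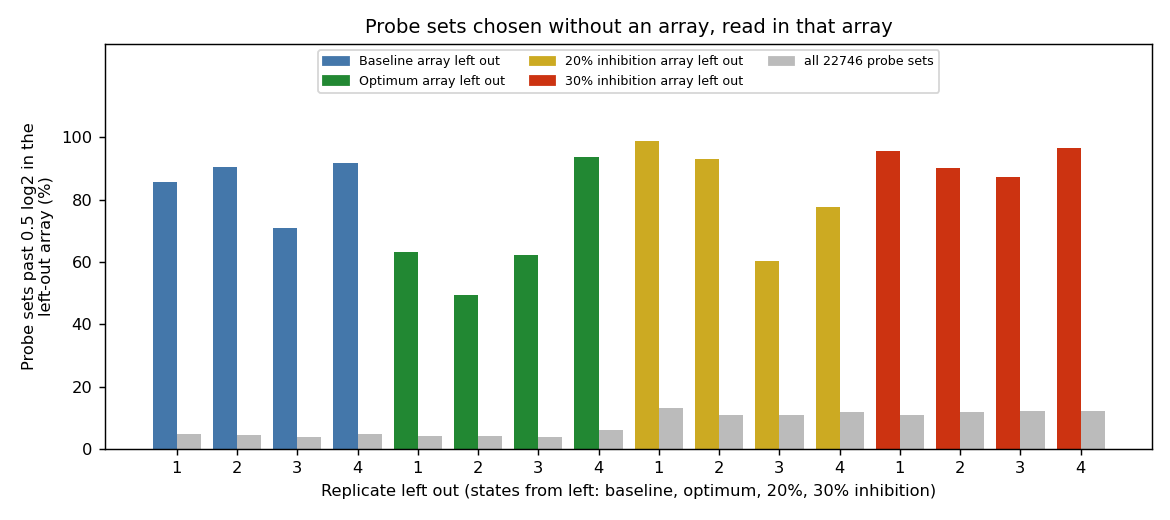
Share of probe sets past 0.5 (percent) in an array left out of the choice, for each of the 16 arrays by state, beside the share over all probe sets in grey. Optimum arrays are read as higher than the baseline mean and all others as lower than the optimum mean. The optimum arrays range from 49.3% (replicate 2) to 93.8% (replicate 4), and 20% inhibition replicate 3 stands at 60.3%.

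Gene lists covered only a small part of the array, so they do not show how the members spread over pathways. Of the 4 calcium-binding members described above, for example, only CML38 was on the calcium signalling list. Across 29 gene lists holding 377 measured probe sets, 9 members fell into 9 lists, and 20 lists held none, 2 of them without a measured probe set. LTI30 was the member among 15 measured for abscisic acid and dehydration, CML38 among 13 for calcium signalling, TMT1 among 14 for transporters and CYP71B23 among 67 for cytochrome P450 and glycosyltransferases. Cell wall genes gave XTH18 and ATPMEPCRB out of 42, and defence genes gave PDF1.2 and PDF1.2b out of 7. The 6 measured heat shock proteins and chaperones held no member, and their median difference from the baseline was 2.40 at 20% inhibition and 2.46 at 30% inhibition. Members with 1 gene lay on chromosomes 1 to 5 in numbers of 19, 9, 14, 14 and 15. Promoter sequences were not used here.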

How the data were processed

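Total RNA (6 µg per sample, isolated from 100 mg of leaf) was labelled and hybridised to Affymetrix arrays, 16 in all. The deposited values are log2 signals per probe set, and the authors made them with RMA, which together with limma is named in the submitters' processing notes; which versions were used is not given in the sources used here. Of 22810 probe sets 64 were controls. Genes came from the array annotation (13513 probe sets with 1 gene, 503 with several, 8730 with none) and from RefSeq names of TAIR10.1, without coordinates.

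No scaling or filter was added. All 16 arrays entered one limma 3.58.1 model (R 4.3.3) with a mean per state, 2-sided, with Benjamini-Hochberg adjustment over 22746 probe sets (12 residual and 4.21 prior degrees of freedom), and was tested on simulated data. Adjusted p-values are from limma throughout. Arrays of 1 state correlated at 0.9879 to 0.9977. The number of arrays limits the precision.

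The members and gene lists were chosen with earlier results of these data known. Named genes were the 12 largest optimum differences, the 10 largest drops after the optimum, up to 5 called in each direction at 30% inhibition against 20% inhibition and against the baseline, up to 3 members per list, families and the probe sets at the threshold; others were named after their values were seen. Alternatives were other thresholds, group medians, eBayes priors, array weights, centring, quantile normalisation, a fit on 8 arrays, leaving out the dimmest probe sets, the 25S control as a covariate, the replicate block and leaving out each array.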

Additional observations from a re-analysis of the deposited data

Results flagged for a closer look

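In a check of 204 groups of 4 arrays, 11 held an array whose gap to its nearest neighbour took up most of the group's range; chance flags about 1 group in 20. At 20% inhibition, replicate 3 stood apart as the highest array of AT1G19380 (9.27, others 7.16 to 7.34), XTH18 (5.14, others 3.82 to 4.00) and ATPMEPCRB (7.32, others 4.48 to 4.71), and replicate 1 as the lowest of AT1G52000 (6.55, others 7.28 to 7.31). At the baseline, replicate 3 stood apart as the highest array of 3xHMG-box2 (7.0, others 5.62 to 5.68), AT3G02640 (7.82, others 6.50 to 6.72) and AT2G41650 (7.09, others 6.44 to 6.52). At the optimum, the lowest array stood apart in AT1G31690 (7.47 in replicate 3, others 7.63 to 7.65), AT1G72900 (6.64 in replicate 2, others 7.27 to 7.29) and CYP71B23 (4.90 in replicate 1, others 5.37 to 5.45). AT2G41650 was also apart at 30% inhibition, with 6.08 in replicate 4 and 6.49 to 6.53 in the others.

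The 25S rRNA control lay outside the tested probe sets and was higher than at the baseline in every inhibited array except 20% inhibition replicate 3, which read 5.25. Its highest values were 12.99 at 20% inhibition and 11.35 at 30% inhibition, against 5.55 to 6.41 in the baseline arrays.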

How the results depend on the processing

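No call of a single named gene turned its direction under the alternatives run. The members' median at 20% inhibition minus baseline, 0.03, was −0.10 without 20% inhibition replicate 3 and 0.08 without replicate 1. A rule threshold of 0.25 gave 725 members and a threshold of 1 gave 26; leaving out 1 array gave 144 to 209. For 30% against 20% inhibition, the count of higher members was 0 with the replicate block (3.74% of all probe sets). It was 2 with the 25S control as a covariate (1.14%, against 5.16% of all). With 1 array left out it was 0 to 6, against 3.04% to 5.83% of all. The lower count was then 3 to 8, against 1.94% to 3.64%. For 20% inhibition against the baseline, the higher count was 13 on only the 8 arrays compared (7.43%, against 17.7% of all). It was 13 with arrays centred on their medians (7.43%, against 23.7%) and 20 with the 25S covariate (11.4%, against 15.3%). With 1 array left out it was 6 to 14, against 16.8% to 18.9% of all. The lower count was 18 with the 25S covariate (10.3%, against 19.8%). With 1 array left out it was 24 to 38, against 23.3% to 25.4% of all. For 30% inhibition against the baseline, the 8 arrays gave 13 higher (7.43%, against 20.1% of all) and 57 lower (32.6%, against 25.8%). Among the 26 members at a threshold of 1, limma called 0 higher and 0 lower between the inhibited states (0 and 3 at an unadjusted p under 0.05). Against the baseline it called 0 higher (0 unadjusted) and 1 lower at 20% inhibition, and 0 higher (0 unadjusted) and 3 lower at 30% inhibition. Over all probe sets the shares called higher and lower were 4.19% and 2.97% between the inhibited states. Against the baseline they were 18.9% and 24.9% at 20% inhibition, and 19.3% and 24.9% at 30% inhibition. With the replicate block, where 0 were called higher, 2 were so at an unadjusted p under 0.05. Same-numbered arrays of different states correlated at −0.359 to 0.311 in their deviations, so the numbers were not taken as pairs. Of 522 repeats of calls of single genes 476 held and 46 were lost, 8 of 21 with the 25S covariate, which overlaps with state. The calls of AT5G52750 and AT4G30650 at 20% inhibition and of AT4G15830 at 30% inhibition against the baseline were lost most widely. The causes were not tested.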
